A study of Mus musculus with 4 samples.

Results

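The genes Dnmt1, Dnmt3a, Uhrf2, Mbd2 and Hdac4 of the DNA methylation and chromatin machinery were followed through a table of methylated DNA regions from CD4+ T cells of the mouse. Every region carrying 1 of these 5 gene labels was taken, which gave 7 of the 10000 regions in the table and 5 of its 5377 Ensembl gene identifiers. Dnmt3a and Hdac4 had 2 regions each, and the other genes had 1 each.

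The study captured methylated DNA from 4 sorted populations and sequenced it, with 1 library per population. Th17 cells were CD3+CD4+ with low CD45RB and secreted IL-17A without interferon gamma (IFNg-IL17A+). Regulatory T cells (Treg) were sorted as CD3+CD4+CD25++, Th1 cells had low CD45RB and were IFNg+IL17A-, and naive T cells were CD3+CD4+ with high CD45RB. All groups shared the source, female Balb/c mice (spleen and lymph node), and a 3 h stimulation with PMA (10 ng/ml) and ionomycin (500 ng/ml). Treg cells were stimulated once sorted, and the other populations ahead of sorting. Neither the age nor the number of the mice is given in the labels.

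DNA methylation in mammals sits mostly on cytosines of CpG pairs. DNMT1 copies existing methylation onto the new strand after replication, and DNMT3A places methyl groups on sites that had none. UHRF2, a relative of the hemimethylated-DNA reader UHRF1, has domains that bind modified DNA and histones, and MBD2 binds methylated CpG and brings in the NuRD complex, which contains histone deacetylases. HDAC4 is a class IIa histone deacetylase that moves between nucleus and cytoplasm and acts with transcription factors and corepressors.

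Captured fragments are those bound by a methyl-CpG-binding protein, so a region's reads reflect both its methylation and its CpG content. The deposited values are reads multiplied by 1 constant per library. One read was worth 0.352 in the Treg library, 1.68 in the Th1 library and 0.996 in the naive library, so the Treg library was the most finely resolved. The table held 74571 Treg, 19548 Th1 and 34277 naive reads in all. Every Th17 value in the table is 0. Intervals given with values are exact Poisson intervals at 95%; they cover counting error only, and no difference here has a replicate check. A smaller share of cells methylated at a region and fewer methylated CpGs per cell cannot be told apart.

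The 7 regions lay within the bodies of their genes. By the table's own classes, 5 were intronic and 2 exonic, and 0 were in the promoter class. Of all regions in the table, 78.7% were intronic, 16.6% exonic and 4.77% promoter regions. The 7 regions were 220 to 388 bp long, with a median of 291 bp, against a median of 249 bp for all regions. All 7 were read in each of the Treg, Th1 and naive libraries, as were 8592 of the 10000 regions. The coordinates below are those of the deposited table in build mm9. The bases of these regions are not printed, because no sequence of that build was used here.

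Dnmt1 (ENSMUSG00000004099), the maintenance methyltransferase gene, had 1 intronic region on chromosome 9 from 20750617 to 20750862, 246 bp long. It was listed at 0 in Th17 cells and held 12 reads in Treg cells, 3 in Th1 cells and 2 in naive cells. The deposited values were 4.23 in Treg (interval 2.19 to 7.39), 5.04 in Th1 (1.04 to 14.7) and 1.99 in naive cells (0.241 to 7.20). The naive value was the lowest of these 3, but its interval overlapped those of Treg and Th1.

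Dnmt3a (ENSMUSG00000020661), the de novo methyltransferase gene, had an intronic region and a region in exon 19 on chromosome 12. RefSeq (GRCm38.p6) places the gene on the forward strand, so the intronic region (3852784 to 3853078) lies upstream of the exonic one (3913929 to 3914219), with 60.9 kb and 66 unlisted region numbers between them. The intronic region was listed at 0 in Th17 cells and held 6 Treg reads, 1 Th1 read and 1 naive read, with values of 2.11 in Treg (interval 0.776 to 4.60), 1.68 in Th1 (0.0426 to 9.37) and 0.996 in naive cells (0.0252 to 5.55). It was the weakest of the 7, with 8 reads in all. The exon 19 region was also listed at 0 in Th17 cells, and it held 13 Treg, 2 Th1 and 4 naive reads. Its values were 4.58 in Treg (interval 2.44 to 7.84), 3.36 in Th1 (0.407 to 12.1) and 3.98 in naive cells (1.09 to 10.2). With 19 reads it was the most deeply read of the 7, so the strongest and the weakest region by reads belonged to the same gene. Exon 19 itself was assigned to 22 of the 1658 exonic regions of the table, and exon 19 or a later exon to 204.

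Uhrf2 (ENSMUSG00000024817) had 1 intronic region on chromosome 19 from 30157514 to 30157778, 265 bp long. It was listed at 0 in Th17 cells and held 8 Treg, 3 Th1 and 4 naive reads. The values were 2.82 in Treg (interval 1.22 to 5.56), 5.04 in Th1 (1.04 to 14.7) and 3.98 in naive cells (1.09 to 10.2). The Treg value was the lowest of these 3, again with overlapping intervals.

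Mbd2 (ENSMUSG00000024513), the methyl-CpG reader gene, had 1 intronic region on chromosome 18 from 70780714 to 70780933. At 220 bp it was the shortest of the 7. It was listed at 0 in Th17 cells and held 10 Treg, 3 Th1 and 4 naive reads. The values were 3.52 in Treg (interval 1.69 to 6.48), 5.04 in Th1 (1.04 to 14.7) and 3.98 in naive cells (1.09 to 10.2). Its mean over these 3 libraries, 4.18, was the highest among the 7 regions.

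Hdac4 (ENSMUSG00000026313) had a region in exon 2 and an intronic region on chromosome 1, and these were the longest of the 7 at 388 and 362 bp. RefSeq places the gene on the reverse strand, so the intronic region (94023726 to 94024087) lies upstream of the exon 2 region (93898537 to 93898924), with 125 kb and 87 unlisted region numbers between them. The exon 2 region was listed at 0 in Th17 cells and held 8 Treg, 1 Th1 and 3 naive reads, with values of 2.82 in Treg (interval 1.22 to 5.56), 1.68 in Th1 (0.0426 to 9.37) and 2.99 in naive cells (0.616 to 8.73). The intronic region was listed at 0 in Th17 cells as well and held 8 Treg, 3 Th1 and 2 naive reads, with values of 2.82 in Treg (interval 1.22 to 5.56), 5.04 in Th1 (1.04 to 14.7) and 1.99 in naive cells (0.241 to 7.20). The Treg reads of the 2 regions were thus equal, while Th1 and naive stood in opposite order, by differences of 2 reads and 1 read. Exon 2 is a common assignment, with 216 of the 1658 exonic regions.

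**Figure D1:**
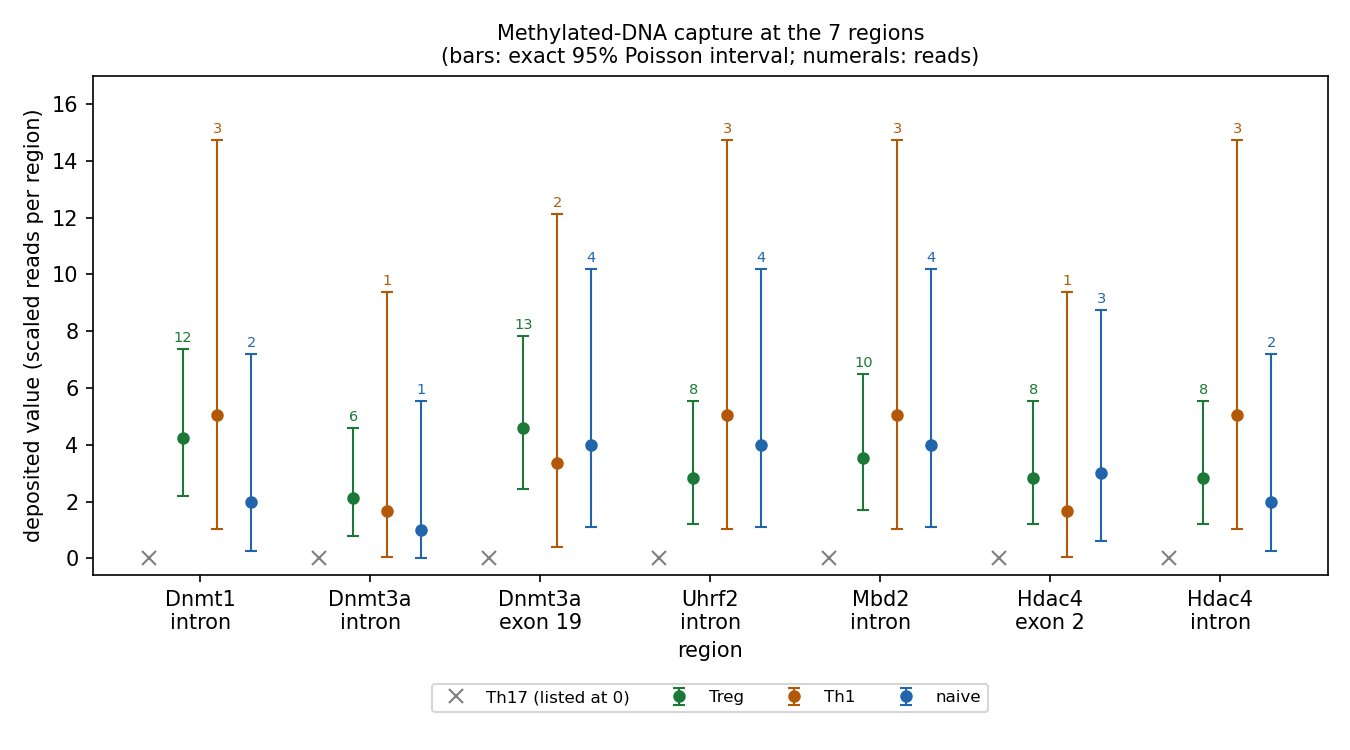
Deposited values (scaled reads per region) of the 7 regions in the Th17, Treg, Th1 and naive libraries, with exact 95% Poisson intervals as bars and the number of reads above each bar. The Th17 crosses all lie at 0, and at each region the intervals of the Treg, Th1 and naive libraries overlap.

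The first comparison set Th17 cells against each other population. By a size rule of at least 1 on the log2 scale, with a pseudocount of 0.5 added to both values, each of the 7 fell below Treg, below Th1 and below naive cells in the Th17 library. The rule was met by 98.9% of all regions against Treg, by 87.7% against Th1 and by 98.4% against naive cells. Regions with Th17 reads are not listed, so these counts describe how the table is built, and nothing about the 5 genes is read from them. The depth of the Th17 library could not be recovered. If Th17 cells had carried the mean value of the other 3, the Mbd2 region would have held 11.9 Th17 reads at the depth of the Treg library, 2.49 at that of the Th1 library and 4.20 at that of the naive library. For the Dnmt3a intron the same numbers are 4.53 reads for the Treg depth, 0.950 for Th1 and 1.60 for naive. At the Th1 depth all 7 regions would have held from 0.950 to 2.49 reads, which leaves little room to tell a 0 from a low read number.

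In the comparison of Treg with naive cells, 0 of the 7 regions differed by the size rule in either direction. Of all regions, 8.33% were higher in Treg and 22.2% lower. A log2 ratio above 0 was found at 4 of the 7 and a negative one at 3, with a median of 0.18 against -0.29 for all regions. Dnmt1 stood highest at 0.92, with 12 Treg against 2 naive reads, a ratio of deposited values of 2.12 and an exact conditional 95% interval of 0.473 to 19.5. The Dnmt3a intron followed at 0.81, on 6 Treg reads and 1 naive read. Uhrf2 was lowest at -0.43, with a ratio of 0.708 (interval 0.190 to 3.21). The intervals of all 7 ratios held 1; of the intervals of all regions, 0.220% lay above 1 and 4.45% below it. This comparison depends on the scaling. The median log2 ratio of all regions came to 0.04 after scaling each library to the same total, and the share of higher regions among those past the rule went with it, at 27.3% as deposited and 55.2% at equal totals. At equal totals Dnmt1 (1.25) and the Dnmt3a intron (1.09) passed as higher in Treg, as did 15.2% of all regions, while 12.3% were lower. Mbd2 and Hdac4 exon 2, at -0.16 and -0.07 as deposited, came to 0.18 and 0.25.

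In the comparison of Th1 with naive cells, 2 of the 7 regions were higher by the size rule and 0 were lower. Of all regions, 19.4% were higher in Th1 and 29.0% lower, so 2 of 7 is not read as a feature of these genes. The 2 regions were those of Dnmt1 and the Hdac4 intron, which held the same reads, 3 in Th1 and 2 in naive cells. Their log2 ratio was 1.15 and the ratio of values 2.53, with an interval of 0.290 to 30.3. Uhrf2 and Mbd2 also shared their reads, 3 in Th1 and 4 in naive cells, a log2 ratio of 0.31. Dnmt3a exon 19 and Hdac4 exon 2 had log2 ratios below 0, at -0.22 and -0.68. The median of the 7 log2 ratios was 0.31, against -0.19 for all regions. The 2 exonic regions were below 0 and the 5 intronic regions above it, on 1 to 4 reads per library. The same split was not taken over all regions, so no difference between exons and introns is read from it. The intervals of all 7 ratios held 1; of the intervals of all regions, 0.730% lay above 1 and 0.150% below it.

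In the comparison of Treg with Th1 cells, 0 of the 7 regions differed by the size rule, against 17.0% of all regions higher in Treg and 21.0% lower. Hdac4 exon 2 stood highest at a log2 ratio of 0.61, with 8 Treg reads and 1 Th1 read. Uhrf2 and the Hdac4 intron were lowest, both at -0.74 with 8 Treg and 3 Th1 reads, a ratio of 0.559 (interval 0.134 to 3.27). The median of the 7 log2 ratios was -0.23, against -0.22 for all regions. Dnmt1 lay at -0.23 as deposited and at 0.06 at equal totals. At equal totals the share of higher regions among all those past the rule was 59.8%, against 44.8% as deposited. The intervals of all 7 ratios held 1; of the intervals of all regions, 0 lay above 1 and 2.83% below it. The 3 comparisons share libraries and are not independent of each other.

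**Figure D2:**
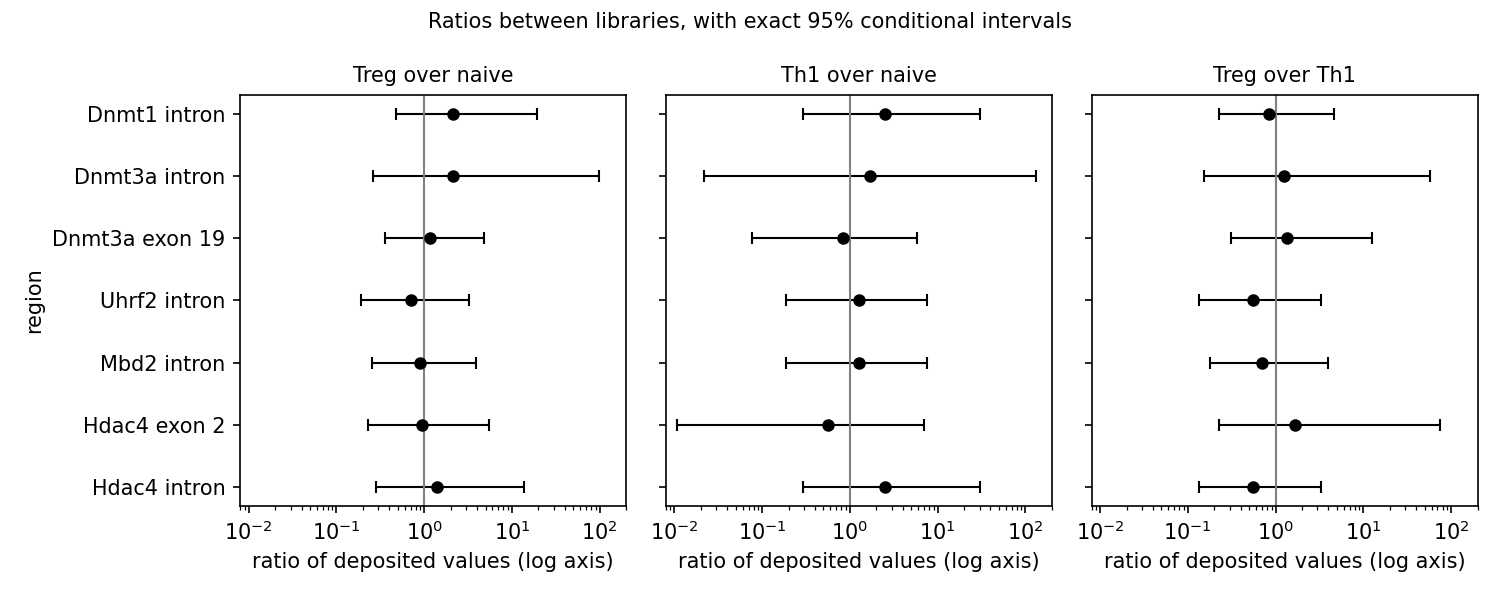
Ratios of deposited values at the 7 regions, on a log axis, for Treg over naive, Th1 over naive and Treg over Th1, with exact conditional 95% intervals as bars. Each interval crosses the line at 1, and the widest, from 0.0215 to 132, is that of the Dnmt3a intron for Th1 over naive, which rests on 1 read in each library.

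Summed over the 7 regions, the Treg library held 65 reads, the Th1 library 16 and the naive library 20. The mean value per region was 3.27 in Treg (interval 2.53 to 4.17), 3.84 in Th1 (2.20 to 6.24) and 2.85 in naive cells (1.74 to 4.40). All regions of the table averaged 2.63 in Treg, 3.29 in Th1 and 3.41 in naive cells, and each of these lies inside the interval of the 7 regions. By gene, the Dnmt3a pair held 19 Treg, 3 Th1 and 5 naive reads, and the Hdac4 pair 16, 4 and 5 in the same libraries.

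The order of the 3 read libraries was not shared by the 7 regions. Th1 had the highest value at 4 regions (Dnmt1, Uhrf2, Mbd2 and the Hdac4 intron), each time on 3 reads. Treg had it at both Dnmt3a regions and naive at Hdac4 exon 2. Of all regions, Treg was highest at 17.6%, Th1 at 39.7% and naive at 42.7%. The order is fragile: 1 more or 1 fewer Th1 read would change which library is highest at 6 of the 7 regions.

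The 7 regions took widely spaced places in the table. By the mean value over Treg, Th1 and naive cells, Mbd2 lay at the percentile 90.8, Dnmt3a exon 19 at 87.4, Uhrf2 at 86.2 and Dnmt1 at 81.5. The Hdac4 intron lay at 62.0, Hdac4 exon 2 at 23.0 and the Dnmt3a intron at 2.06. The median of the 7 mean values was 3.75, against 3.06 for all regions. The highest mean value in the table was 10.8, well above that of Mbd2. These places carry counting error, since the 7 regions held 8 to 19 reads each and 1 Th1 read was worth 1.68. By total reads, Dnmt3a exon 19 lay at the percentile 95.8, Mbd2 and Dnmt1 both at 89.6 and Uhrf2 at 76.1. Whether the spread of the 7 exceeds counting error was not tested, and no ranking of the genes is read from it.

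**Figure D3:**
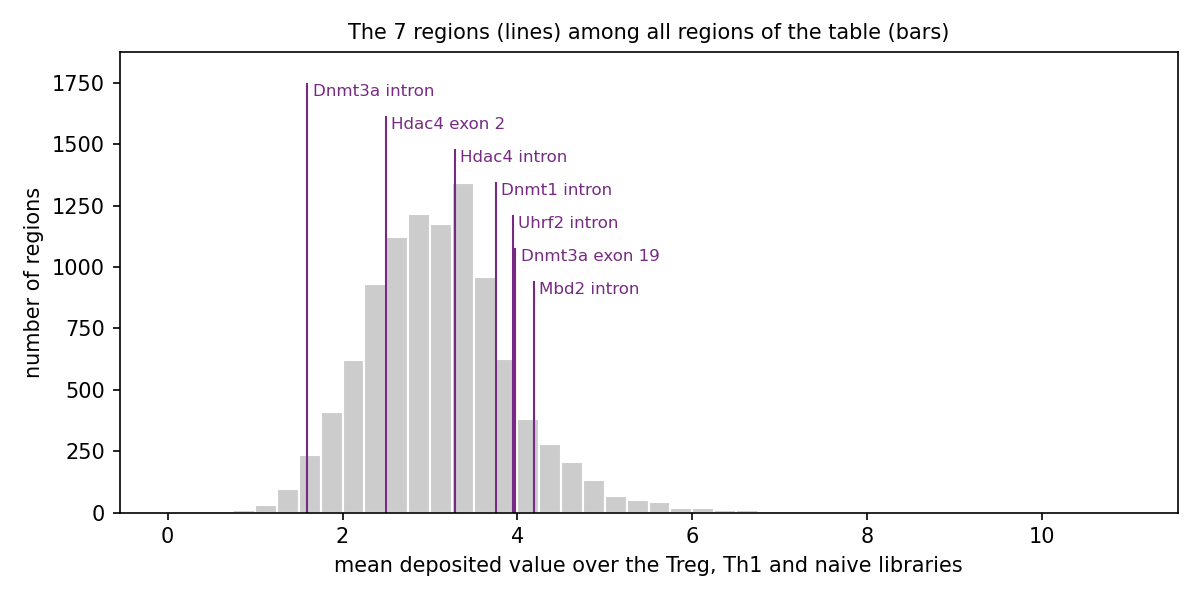
Number of regions by mean deposited value over the Treg, Th1 and naive libraries for all 10000 regions (bars), with the 7 regions as lines, whose height carries no value. Dnmt1, Uhrf2, Dnmt3a exon 19 and Mbd2 lie between 3.75 and 4.18, on the upper flank, and the Dnmt3a intron lies at 1.60, in the lower tail.

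Neither Dnmt3a nor Hdac4 is unusual in having 2 regions, since 1013 of the 5377 genes had 2 and 3434 had 1. Outside the pairs in Dnmt3a and Hdac4, the nearest table region lay from 69.0 kb (Dnmt1) to 690 kb (Mbd2) away. The nearest neighbour of Dnmt1 was an intron of Angptl6, 69.0 kb away, with 14 Treg, 0 Th1 and 1 naive read. The Dnmt3a intron was flanked 106 kb upstream by an intron of Dtnb with 8 Treg, 0 Th1 and 4 naive reads. Beyond exon 19, an intron of Efr3b, 92.5 kb away, held 6, 2 and 3 reads in Treg, Th1 and naive cells. Toward lower coordinates from Uhrf2, an intron of Il33, the gene of an alarmin cytokine, lay 135 kb away with 10 Treg, 2 Th1 and 2 naive reads. Mbd2 was the most isolated, with 690 kb to an intron of Ccdc68 and 857 kb to an intron of Dcc. The median gap between neighbouring regions over the table was 86.0 kb, so the Dnmt1 neighbour lay nearer than that.

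Many other regions held exactly the reads of these 7 in Treg, Th1 and naive cells. Dnmt1 shared its reads with 12 other regions, among them exon 15 of Sin3b, which encodes a scaffold of a histone deacetylase corepressor complex, and an intron of the sialyltransferase gene St3gal3. Dnmt3a exon 19 shared its reads with 12 regions, among them an intron of the centrosomal gene Cep152, and the Dnmt3a intron with 16, among them introns of Myo10 and Gcnt2. Uhrf2 had 44 such regions, with introns of Eps8 and Cwc22 closest in length, and Mbd2 had 22, with E030010A14Rik and Atp10d closest. Hdac4 exon 2 had 55, including exon 6 of the histone demethylase gene Kdm1b and an intron of Hdac9, another class IIa deacetylase gene; closest in length were an intron of C1qtnf7 and 1 region whose deposited label reads as a calendar date. The Hdac4 intron had 58, with introns of Ebf1 and Ikbkb closest. With so few reads, identical values are common, and no link between genes is read from them.

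The 5 genes were next placed among 125 genes of DNA methylation and chromatin, grouped by role. Of these, 36 had a region under their own label, with 68 regions in all. With older symbols resolved, 40 of the 125 had one, beside 22.1% of protein-coding genes of the name table, matched in the same way. Both counts include the 5 genes, and the lists were chosen with earlier results of these data known. Gene length was not taken into account. Without the 5 genes, 31 of 120 genes had a region under their own label. Their 61 regions were 48 intronic, 13 exonic and 0 promoter regions. Their median mean value was 3.17, against 3.75 for the 7 regions and 3.06 for all regions. By the size rule, 4 of the 61 were higher and 8 lower in Treg than in naive cells, 17 higher and 9 lower in Th1 than in naive cells, and 7 higher and 12 lower in Treg than in Th1 cells. As shares of the 61 these were 6.56% and 13.1% for Treg against naive cells, where all regions gave 8.33% and 22.2%. For Th1 against naive cells they were 27.9% and 14.8%, against 19.4% and 29.0% of all regions, so more of the 61 were higher than lower while the whole table ran the other way. For Treg against Th1 cells they were 11.5% and 19.7%, against 17.0% and 21.0%. These differences were not tested, and nothing particular to the listed genes is read from them.

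Among the writers of DNA methylation and their partners, 4 of 8 genes had a region, beside 22.1% of protein-coding genes. Dnmt1, Dnmt3a and Uhrf2 belong to the 5 genes followed here, so that choice largely set the count, and no share of writers is read from it. The same limit holds for Mbd2 among the methyl-CpG readers and for Hdac4 among the histone deacetylases. Besides Dnmt1, Dnmt3a and Uhrf2 this was Uhrf1, whose product guides DNMT1 to newly replicated DNA, with a region in exon 4 that held 10 Treg, 3 Th1 and 2 naive reads. The Uhrf1 region was higher in Th1 than in naive cells by the size rule, as was Dnmt1, with the same 3 Th1 and 2 naive reads. So were 19.4% of all regions, and on so few reads no joint behaviour of these genes is read from it. Of 10 methyl-CpG reader genes, Mbd2 and Mbd5 had a region. The Mbd5 intron held 17 Treg, 4 Th1 and 4 naive reads and had a mean value of 5.57, above that of Mbd2. Of 7 genes of DNA demethylation, Tet1 and Tet3, both encoding dioxygenases that oxidise 5-methylcytosine, had 1 intronic region each, with 11 and 12 Treg, 3 and 2 Th1, and 2 and 3 naive reads.

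Of 16 histone deacetylase genes, 5 had a region, with 11 regions in all. Hdac8, a class I deacetylase gene on the X chromosome, had 4 regions, and Hdac9 had 3 intronic regions spread over 361 kb. The highest mean values in this group were those of Sirt6, a sirtuin gene (exon 2, 4.52), and of 1 Hdac8 intron (4.50), both above the 3.28 and 2.50 of the Hdac4 regions. Of the 11 regions, 3 were higher and 4 lower in Th1 than in naive cells, 0 higher and 1 lower in Treg than in naive cells, and 2 higher and 1 lower in Treg than in Th1 cells. The shares of all regions were 19.4% and 29.0% for Th1 against naive, 8.33% and 22.2% for Treg against naive, and 17.0% and 21.0% for Treg against Th1 cells. The 14 genes of corepressor complexes with deacetylases had 11 regions, among them regions of Ncor1, which encodes a corepressor that class IIa deacetylases bind, Sin3b, Mta2 and Mta3. Sin3b exon 15 had a mean value of 3.75, and Ncor1 exon 47 one of 3.61. Of these 11 regions, 6 were higher and 1 lower in Th1 than in naive cells, 1 higher and 0 lower in Treg than in naive cells, and 1 higher and 3 lower in Treg than in Th1 cells, beside the same shares of all regions. With 11 regions on few reads each, no pattern of the group is read from these counts.

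Histone demethylase genes gave 6 of 15 (Jmjd1c, Kdm1a, Kdm1b, Kdm2a, Kdm4b and Kdm4c), with 4.07 as their highest mean value, in Jmjd1c, followed by 3.40 in Kdm1a. Histone acetyltransferase and coactivator genes gave 3 of 11 (Ep300, Ncoa1 and Ncoa2), led by Ep300 exon 2 (4.05) and a Ncoa1 intron (3.73). Chromatin remodeler genes gave 8 of 18 (Arid1b, Arid2, Atrx, Chd2, Chd6, Chd9, Smarca2 and Smarcc1), led by Chd6 exon 19 (4.43) and an Arid1b intron (3.97). Histone methyltransferase genes gave 1 of 26 under their own label, Smyd3. With older symbols resolved, Kmt2a, Kmt2c and Kmt2e joined Smyd3 and Kat7 joined the acetyltransferases, which brought the total to 40 of 125 genes.

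**Figure D4:**
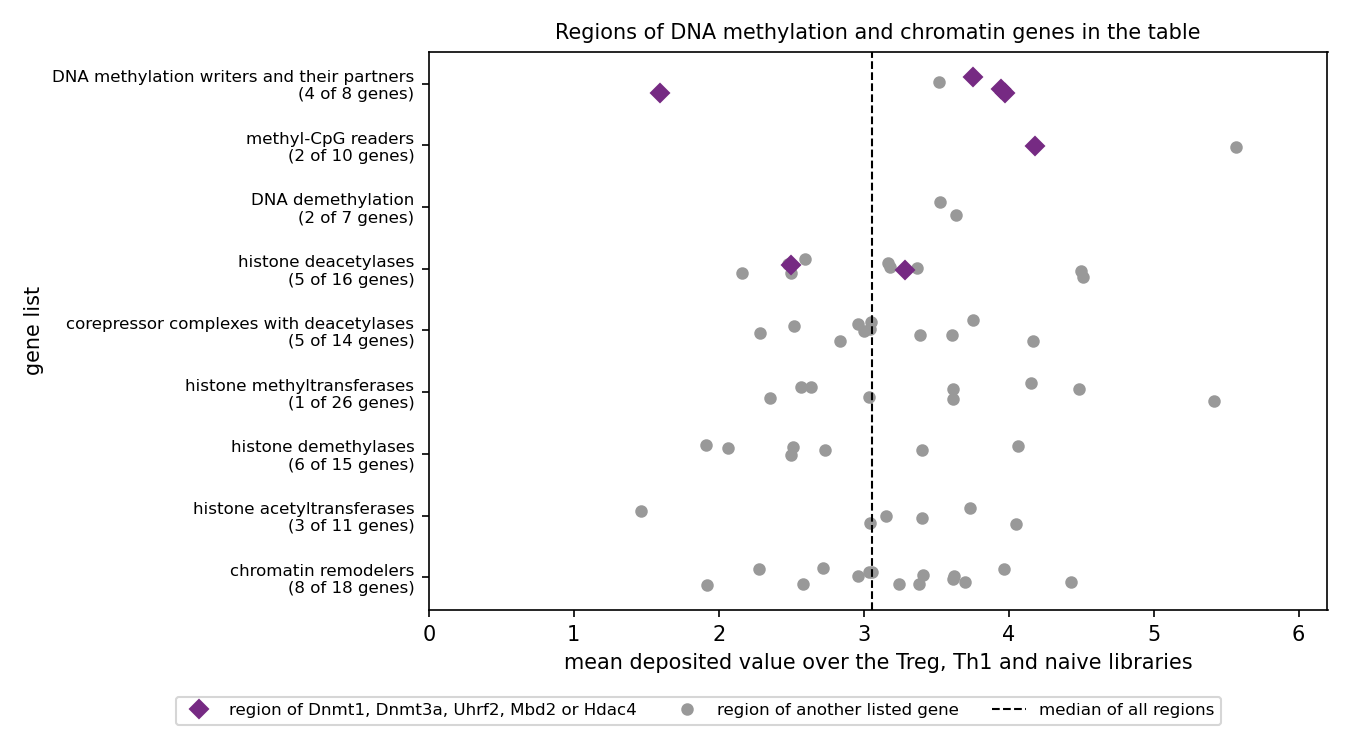
Mean deposited value over the Treg, Th1 and naive libraries for each of the 68 regions of DNA methylation and chromatin genes, by gene group, with the number of genes that had a region. Diamonds are the 7 regions of Dnmt1, Dnmt3a, Uhrf2, Mbd2 and Hdac4, circles the other 61, and the dashed line is the median of all regions, 3.06; both kinds lie on either side of it.

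The identity of the sorted cells cannot be checked from this table, since it lists regions and not expression. Marker genes with a region included Il17a, Ccr6 and Rora for Th17 cells, 1 of 4 for Th1 cells (Stat4), 0 of 4 for Treg cells and 0 of 4 for naive cells. The B cell marker gene Pax5 had 2 regions, and 0 of 4 myeloid markers had one.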

How the data were processed

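The deposited table gives 1 signal per region and library. Per the labels' protocols, a MethylCap kit enriched the methylated DNA, 250 ng of which went into each library, and a gel cut kept fragments of 250 to 350 bp. FastQC, Bowtie 0.12.7 and the mm9 build come from the submitters' processing notes. The calling of regions, the choice of these 10000 and the scaling of values are steps not given in the sources used here. Division gave the reads: all Treg, Th1 and naive values (100%) were whole multiples of their column's smallest value, within a relative tolerance of 1e-06.

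Since each population has 1 library, no test was run between populations. Log2 ratios used a pseudocount of 0.5, and at least 1 in size passed. Ratio intervals are Clopper-Pearson intervals at 95% on the reads (scipy 1.17.1, Python 3.11.15), checked on simulated reads. The 5 genes, the gene groups and the markers were chosen with earlier results of these data known. All regions of the 5 genes are named, every other listed gene with a region, up to 2 regions per group by mean value, and up to 2 regions with identical reads, closest in length. Some items that this rule names are not reported here. Regions named beside these were chosen after their values were seen. Older symbols and strands came from RefSeq tables of GRCm38.p6; no coordinate was taken from them. Alternatives were other pseudocounts, thresholds and scalings and a filter on reads.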

Additional observations from a re-analysis of the deposited data

How the results depend on the processing

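Under the pseudocount of 5 and both other scalings, which are the alternatives that change a ratio, the log2 ratios of the 7 regions stayed inside the counting intervals given for them as deposited (63 values). Those intervals are wide and all hold 1, so hardly any other outcome was possible, and no stability of the ratios is read from it. The number passing the size rule moved, both for the 7 and over all regions. In the comparison of Treg with naive cells, 0 regions were higher as deposited and 2 (Dnmt1 and the Dnmt3a intron) at equal table totals, with median-of-ratios scaling and at a limit of 1.5-fold, where 15.2%, 13.4% and 16.1% of all regions were higher, against 8.33% as deposited. In the comparison of Th1 with naive cells, 2 were higher as deposited and 0 with a pseudocount of 5 (1.91% of all regions) or a limit of 1.5 on the log2 scale (9.65%). At 1.5-fold, 1 region (Hdac4 exon 2) was lower, as were 37.2% of all regions. In the comparison of Treg with Th1 cells, 1.5-fold gave 1 higher (Hdac4 exon 2) and 2 lower (Uhrf2 and the Hdac4 intron), against 26.3% of all regions higher and 35.2% lower. With a pseudocount of 5, the regions lower in Th17 numbered 0 against Treg, 4 against Th1 and 0 against naive cells, and the share of all regions was 1.86%, 31.0% and 8.88% in the same order, since a larger pseudocount shrinks ratios toward 0. Asking for at least 10 reads left out the Dnmt3a intron and moved none of the counts of the 7 regions by over 1.5 times. Over all regions, the number lower in Treg than in naive cells fell from 2217 to 1379, which was 16.4% of the 8406 regions kept. No paired analysis was possible because each population has 1 library, and for the same reason no replicate could be left out. Reads per region, 1 to 4 in the Th1 and naive libraries, limit every ratio given.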

Other observations

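Smyd3, which encodes a SET-domain methyltransferase, had 9 intronic regions over 448 kb of chromosome 1, the most of any of the 125 listed genes. They held 1 to 12 Treg, 1 to 4 Th1 and 2 to 7 naive reads. The highest mean value among them was 5.41, at 12 Treg, 3 Th1 and 7 naive reads. Ncor1 had 3 regions over 35.6 kb with 29 Treg, 9 Th1 and 3 naive reads in sum, and its intron with 16 Treg and 2 Th1 reads held 0 naive reads. That intron was named after its values were seen, and 98.4% of all regions held a naive read. The 4 Hdac8 regions held 33 Treg, 8 Th1 and 14 naive reads in sum. The reads of Ncor1 and Hdac8 were taken at unequal depths, and no order of the libraries is read from them.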
